A study of Rattus norvegicus with 4 samples.

Results

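Interleukin 33 and the genes of type 2 immunity around it were followed in single cells of rat abdominal midline fascia. The set holds 7 genes, named Il33, Il1rl1, Tslp, Gata3, Il13, Il5 and Ccl11, and was chosen by symbol among 30560 gene rows. Of these genes, 6 have a row under their symbol. Tslp, the other epithelial and stromal alarmin, has none and was not analysed here. All 6 were detected in at least 1 deposited cell, although Il13 was detected in only 1. Cell types were assigned by gates on marker genes outside the set, so no level of a member was used to place a cell.

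Il33 is an alarmin, a cytokine stored in the nucleus of stromal, endothelial and epithelial cells and released on damage. Its receptor chain ST2 is the product of Il1rl1 and is carried by mast cells, group 2 innate lymphoid cells and some T cells. Those lymphocytes depend on the transcription factor GATA3 and can secrete interleukins 5 and 13, while eotaxin, the product of Ccl11, draws eosinophils into the tissue.

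Dysentery was induced in rats with Salmonella, and cells of the subcutaneous fascia at the midline were sequenced in 2 groups of 2 libraries each, the first from dysenteric rats after acupuncture and the second from rats with dysentery alone, by the titles. Both groups carry the infection, and healthy fascia was not analysed here. The treatment field of all 4 libraries names the opposite group, whereas titles, descriptions and design text name the same group. Directions below follow the titles, and each sign is reversed if that field holds. The labels do not say whether libraries came from separate or pooled animals, so p-values measure the spread between libraries only.

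The 2 acupuncture libraries kept 7704 and 8567 cells at a median of 7465.5 and 9188 UMIs (unique molecular identifiers, each counted as 1 RNA molecule). The 2 dysentery libraries kept 6310 and 9816 cells at 6629.5 and 6825.5 UMIs. Dysentery replicate 1 had 16.0% of deposited cells over the mitochondrial limit, against 5.11% to 7.17% in the other libraries. Pairs of libraries shared 19 to 32 cell barcodes. Levels are given as CPM, the usual scaling of a gene's UMIs to a fixed total for the same gate and library. Log2 fold changes are acupuncture over dysentery, with their standard error (SE). Counts from transcript ends do not separate the soluble from the membrane form of ST2. Changes were tested with edgeR's quasi-likelihood test on UMIs summed per library, adjusted by Benjamini-Hochberg over all genes tested in the gate.

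Il33 was found mainly in the stromal gate, which holds fibroblasts and telocytes, and in vascular endothelium. In the stromal gate it stood at 1042 and 985 CPM in the acupuncture libraries, against 1490.2 and 1867 CPM in the dysentery libraries. Both acupuncture libraries were below both dysentery libraries, in a gate where 48.7% of all genes tested were separated in one direction or the other. The log2 fold change was -0.72 ± 0.18 and did not pass (adjusted p = 0.111), while DESeq2 called it. Of 4 members tested in the stromal gate 0 were called by edgeR, 2 had an unadjusted p under 0.05 and 1 was called by DESeq2, where edgeR called 2.55% of all genes. Leaving out each library gave -0.90 to -0.51 with adjusted p between 0.0673 and 0.317.

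Most stromal cells carried the transcript. Thinned to 2000 UMIs per cell, 75.7% and 77.3% of stromal cells had an Il33 UMI with acupuncture, against 83.2% and 89.7% in dysentery. The difference of -9.89 percentage points had a two-sided exact permutation p of 0.333, the smallest that 2 libraries against 2 can give. Unthinned, the shares were 87.5% and 90.4% with acupuncture and 88.7% and 94.2% in dysentery, and the groups overlapped. Thinning left out 856 shallower acupuncture cells and 813 dysentery cells. The 10 stromal cells richest in Il33 held only 0.922% to 2.63% of its UMIs in any library, so the level was spread over the whole gate.

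The lower Il33 level was seen in each stromal subset, none of which passed the test. In cells with both Cd34 and Pdgfra UMIs, the usual markers of telocytes that fibroblasts share, Il33 was at 1120 and 1043 CPM with acupuncture and 1641 and 1996 CPM in dysentery (log2 -0.75 ± 0.16, adjusted p = 0.0613). In cells with Pi16 or Dpp4, markers of adventitial fibroblasts, the values were 1104 and 1030 against 1569 and 1928 CPM (log2 -0.70 ± 0.17, adjusted p = 0.102). Stromal cells with none of these markers had the lowest level, at 359 and 424 against 589 and 564 CPM (log2 -0.57 ± 0.18, adjusted p = 0.142). These subsets were added after the whole gate had been examined, and the first and second share cells.

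Endothelial cells had 909 and 1053 CPM of Il33 with acupuncture and 832 and 1503 CPM in dysentery. The acupuncture values lay between the dysentery values, in a gate where 44% of genes were separated (log2 -0.35 ± 0.25, adjusted p = 0.639), and without dysentery replicate 2 the log2 value was 0.14. This level was 55.9% to 107% of the stromal level of the same library. The collagen gene Col1a1 stood in the same endothelial cells at only 0.574% to 1.14% of its stromal level. Col1a1 is among the markers of the stromal gate, so its level outside that gate depends on the gating. The change of Il33 in stromal cells minus that in endothelial cells was -0.43 ± 0.22 on the log2 scale. It did not pass (adjusted p = 0.490, with 1.81% of all genes called).

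Epithelial cells, 10 to 81 per library, carried Il33 at 126 and 291 CPM with acupuncture and 159 and 162 CPM in dysentery. In order of mean level came stromal, endothelial and epithelial cells, with the ranges of the first and second overlapping. Mural cells of vessel walls were too few for a level, at 25 and 15 cells with acupuncture and 6 and 6 in dysentery, with 0 to 23 Il33 UMIs. Against all other gated cells of the same libraries, Il33 was higher in the stromal gate by 4.97 ± 0.16 on the log2 scale (adjusted p = 2.24e-06), in a contrast where 34% of all genes tested were called higher.

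In the macrophage gate Il33 fell by 1.39 ± 0.16 on the log2 scale (adjusted p = 0.0172), at a low level. It had 7.03 and 6.01 CPM with acupuncture and 16.5 and 18.5 CPM in dysentery, and 2 of the 3 members tested there were called, against 9.49% of all genes. Without acupuncture replicate 1 or acupuncture replicate 2 the call was lost (adjusted p = 0.0858 and 0.0610). These values are 0.610% to 1.11% of the stromal level of the same library. Col1a1 stood in the same macrophages at 0.432% to 1.12% and Dcn, another fibroblast gene, at 0.508% to 1.08% of their stromal levels, both lower in the acupuncture libraries. As a share of the stromal level, Il33 in the macrophage gate was near these fibroblast genes. Both are among the markers of the stromal gate, so their level outside it depends on the gating, whereas Il33 is no marker. The part of free stromal RNA in the fall of Il33 was not tested. T cells had 7.77 to 18.1 CPM of Il33, at 0.789% to 1.05% of the stromal level.

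**Figure D1:**
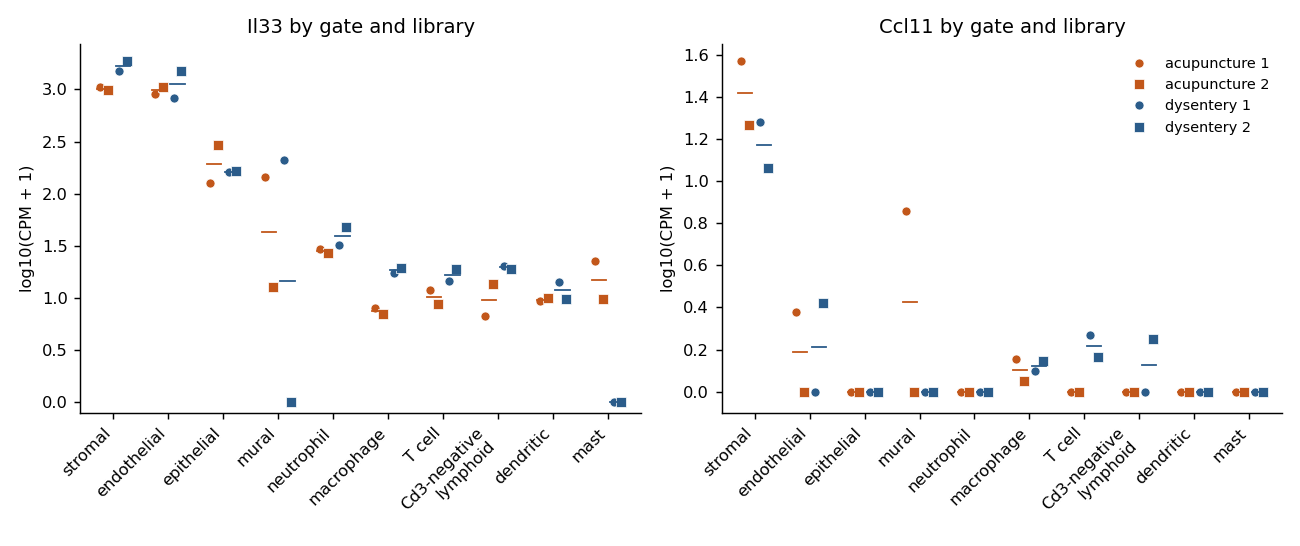
Il33 and Ccl11 in each gate, as log10(CPM + 1) on the y axis; each point is a library (orange acupuncture, blue dysentery, circles replicate 1, squares replicate 2) and short lines are group means of the plotted values. Stromal cells held Il33 at 985 to 1867 CPM and endothelial cells at 832 to 1503 CPM. Among the gates Ccl11 exceeded 10 CPM only in the stromal gate, while cells that passed no gate had up to 23.3 CPM.

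RefSeq lists 2 start sites for rat Il33, and 3' end counts cannot separate transcripts that begin at one or the other. Their promoter sequences are shown because the alarmin's level in stroma and endothelium is the main measurement above. They are taken from RefSeq (build GRCr8, plus strand, 250 bases before to 50 bases after each start), where 5 of the 7 members had an entry, and capitals mark matches to a GATA motif.
Il33 start site 1, chr1:237115323-237115622: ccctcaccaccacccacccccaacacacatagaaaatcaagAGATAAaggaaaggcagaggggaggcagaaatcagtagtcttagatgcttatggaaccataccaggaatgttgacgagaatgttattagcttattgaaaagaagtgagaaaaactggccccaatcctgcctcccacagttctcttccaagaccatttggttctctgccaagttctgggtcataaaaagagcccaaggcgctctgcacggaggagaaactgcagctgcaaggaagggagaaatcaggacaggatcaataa
Il33 start site 2, chr1:237134696-237134995: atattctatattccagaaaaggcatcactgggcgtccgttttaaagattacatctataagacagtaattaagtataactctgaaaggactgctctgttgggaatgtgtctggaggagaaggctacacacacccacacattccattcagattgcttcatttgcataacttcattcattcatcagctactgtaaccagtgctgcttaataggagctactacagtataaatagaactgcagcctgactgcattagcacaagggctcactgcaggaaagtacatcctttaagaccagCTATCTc
The motif was searched as the letters GATA with A or T before them and A or G after them, on both strands, and 30.3% of the 33469 promoters in the table hold it. Its match begins 209 bases before the first start site and 43 bases after the second. TGANTCA, the letters bound by AP-1, and the palindrome bound by STAT6 were searched on both strands too and are in neither window. They are in 7.33% and 7.28% of all promoters in the table. Such a match is a description of letters and shows no binding.

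Ccl11, the eosinophil chemoattractant, was restricted to far fewer stromal cells. It had 36.4 and 17.4 CPM in the stromal gate with acupuncture, against 18.1 and 10.5 CPM in dysentery. The lower acupuncture library was below the higher dysentery library, so the groups overlapped (log2 0.92 ± 0.35, adjusted p = 0.229). Leaving out each library gave 0.41 to 1.31, and the smallest value came without acupuncture replicate 1.

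A Ccl11 UMI was found in 6.86% and 6.41% of stromal cells with acupuncture and 3.85% and 3.92% in dysentery. Thinned to 2000 UMIs the shares were 2.92% and 1.81% against 1.56% and 1.34%, with an exact permutation p of 0.333. Both acupuncture libraries were above both dysentery libraries in each version, while the CPM overlapped. By level, 48.7% of all genes tested in this gate were separated in one direction or the other, and no such share is given for percentages of cells. Unthinned percentages also depend on depth, and median UMIs per kept cell were higher in both acupuncture libraries. A few cells carried much of the transcript. The 10 richest cells held 36.9% and 47.4% of stromal Ccl11 UMIs with acupuncture and 60.0% and 30.3% in dysentery, while the median cell with the transcript had 1 UMI in each library.

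Among the gates Ccl11 was found almost entirely in stroma. It was higher there than in other gated cells by 6.14 ± 0.38 on the log2 scale (adjusted p = 1.98e-05). Endothelial cells had at most 1 Ccl11 UMI in a library. Cells that passed no gate held 115 of 1809 Ccl11 UMIs with acupuncture and 252 of 1019 in dysentery. Their mean level was 11.1 CPM with acupuncture and 19.5 CPM in dysentery. This is the opposite order to the stromal means of 26.9 and 14.3 CPM. Within the stroma, Cd34 and Pdgfra cells had 37.3 and 8.24 CPM with acupuncture and 19.9 and 11.9 CPM in dysentery, and cells without any of the subset markers had 39.4 and 67.6 against 55.6 and 43.6 CPM. In neither subset were the groups separated. Stromal cells with a Ccl11 UMI also held Il33, at 1136 and 1037 CPM with acupuncture and 1289 and 1973 CPM in dysentery, close to the level of stromal cells without one.

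Cells that passed no fixed gate held 2732 of 5570 Il1rl1 UMIs with acupuncture and 2046 of 4447 in dysentery. Their mean level was 230 ± 62.2 CPM with acupuncture and 156 ± 9.08 CPM in dysentery (SD, n = 2), and was not tested. The levels and tests by fixed gate leave these cells out. Mast cells carried the highest Il1rl1 levels of any fixed gate. They had 1655 and 1386 CPM with acupuncture and 1398 and 1558 CPM in dysentery, with ranges that overlap, and 80.0% and 91.7% of them had an Il1rl1 UMI with acupuncture against 80.0% and 91.7% in dysentery. There were 15 and 72 mast cells with acupuncture and 5 and 12 in dysentery. Their share of kept cells was 0.518% ± 0.457 with acupuncture and 0.101% ± 0.0304 in dysentery (SD, n = 2), which did not pass (log2 2.33 ± 0.92, adjusted p = 0.289). Against other gated cells Il1rl1 was higher in mast cells by 5.78 ± 0.37 on the log2 scale (edgeR, adjusted p = 2.18e-51), where 4.57% of all genes were called higher. Without a block in the model it was 5.81 ± 0.31 (adjusted p = 4.97e-07). The size of the p-value thus depended on the model, whereas the log2 value hardly did. No Gata3 or Il5 UMI was found in any of the 104 mast cells.

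The Cd3-negative lymphoid gate is meant for natural killer and innate lymphoid cells. Il7r is among its markers and was also found in 12.8% to 38.4% of dendritic cells. Whether myeloid cells passed the gate was not tested. Il1rl1 in this gate had 130 and 194 CPM with acupuncture, against 72.5 and 80.9 CPM in dysentery. Both acupuncture libraries were higher, in a gate where 42.5% of genes were separated in either direction. Genes of natural killer and type 1 cells stood the other way in the same gate. Klrg1 had 79.4 and 36.6 CPM with acupuncture and 130.2 and 138 CPM in dysentery (adjusted p = 0.167), Tbx21 had 171 and 135 against 241 and 225 CPM, and Ifng had 44.2 and 25.5 against 81.5 and 69.2 CPM. Their part in the Il1rl1 values was not tested. The log2 fold change of Il1rl1, 1.07 ± 0.24, did not pass (adjusted p = 0.125), with 0 members called by edgeR or DESeq2 of 3 tested and 3 at an unadjusted p under 0.05, against 0.4% of all genes called. Without acupuncture replicate 1, dysentery replicate 1 or dysentery replicate 2 the adjusted p was 0.0280, 0.0478 and 0.00761, and without acupuncture replicate 2 it was 0.636.

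The share of Cd3-negative lymphoid cells with an Il1rl1 UMI, thinned to 2000 UMIs, was 11.3% and 19.5% with acupuncture and 6.02% and 7.07% in dysentery (exact permutation p = 0.333). Unthinned it was 17.3% and 28.9% against 10.1% and 16.3%. The gate itself held 127 and 173 cells with acupuncture and 446 and 209 in dysentery. In stromal cells, taken as the background for this receptor, 0.452% to 1.12% of cells had an Il1rl1 UMI, far below these shares.

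T cells had 37.1 and 68.7 CPM of Il1rl1 with acupuncture and 25.7 and 84.7 CPM in dysentery. The acupuncture values lay inside the dysentery range (log2 0.03 ± 0.48, adjusted p = 0.989). The change in T cells minus the change in Cd3-negative lymphoid cells was -0.87 ± 0.35 and did not pass (adjusted p = 0.578, with 0% of all genes called), although it did without dysentery replicate 1 (-1.60, adjusted p = 0.000637). T and Cd3-negative lymphoid cells together exceeded other gated cells by 1.92 ± 0.19 on the log2 scale (adjusted p = 8.25e-05), where 29.2% of genes were called higher.

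In macrophages Il1rl1 fell by 0.79 ± 0.14 in log2 (adjusted p = 0.0307). Macrophage levels were 34.5 and 29.2 CPM with acupuncture and 53.6 and 59.2 CPM in dysentery. Both acupuncture libraries were lower, in a gate where 61.8% of genes were separated in either direction. Without acupuncture replicate 1 or acupuncture replicate 2 the change was -0.89 and -0.66 and lost the call (adjusted p = 0.109 and 0.157), and without acupuncture replicate 1 the gate had 0 genes called by edgeR at all.

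The macrophage gate was not made up alike in the groups. Cells with a UMI of Ccl24, an eotaxin made by alternatively activated macrophages, were 74.4% and 67.7% of the gate with acupuncture and 28.7% and 31.2% in dysentery. Within macrophages without Ccl24, Il1rl1 had 74.7 and 61.9 CPM with acupuncture and 65.4 and 70.9 CPM in dysentery, and the groups overlapped. Within macrophages with Ccl24 it had 16.2 and 12.0 against 12.7 and 20.9 CPM, which overlapped as well. Il1rl1 was therefore lower in every library in the cells with Ccl24, and the groups were not separated inside either part. Mean Il33 in macrophages with Ccl24 was 6.58 CPM with acupuncture and 19.1 CPM in dysentery. In those without Ccl24 it was 6.39 and 17.0 CPM, so mean Il33 was lower with acupuncture in both parts. The split was chosen after the values were seen and carries no test, and whether a cell shows a Ccl24 UMI depends on its depth.

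**Figure D2:**
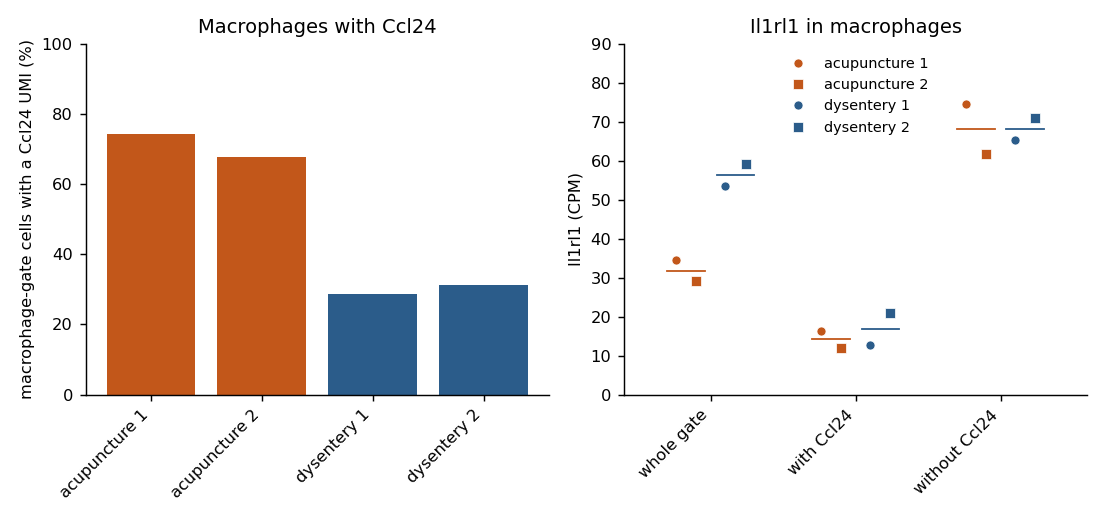
Left, the percentage of macrophage-gate cells with a Ccl24 UMI in each library; right, Il1rl1 in CPM in the whole gate and in its cells with and without Ccl24, with each point a library (orange acupuncture, blue dysentery) and short lines as group means. In the whole gate the groups are apart, at 34.5 and 29.2 against 53.6 and 59.2 CPM, whereas within each part they overlap.

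Dendritic cells had 22.8 and 42.0 CPM of Il1rl1 with acupuncture and 16.0 and 5.90 CPM in dysentery, from 4 to 66 UMIs per library. Both acupuncture libraries were higher, in a gate where 48% of genes were separated. The log2 value of 1.58 ± 0.44 did not pass (adjusted p = 0.0902, with 4.62% of genes called), and it did without acupuncture replicate 1 or dysentery replicate 1 (adjusted p = 0.000328 and 0.0436). The change in macrophages minus the change in dendritic cells was -2.38 ± 0.44 and passed (adjusted p = 0.00344, with 2.24% of genes called), and without acupuncture replicate 2 it was -1.53 (adjusted p = 0.278).

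**Figure D3:**
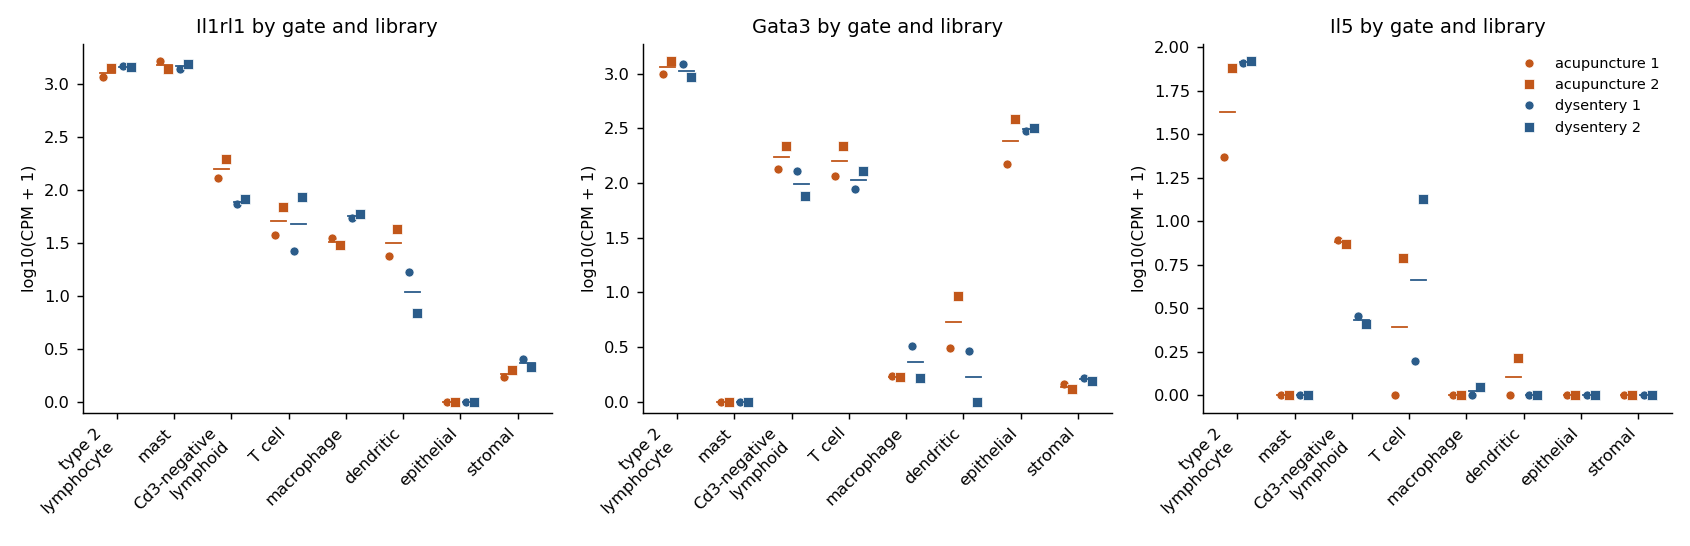
Il1rl1, Gata3 and Il5 in 7 fixed gates and in the added type 2 lymphocyte gate, as log10(CPM + 1) on the y axis; points are libraries (orange acupuncture, blue dysentery, circles replicate 1, squares replicate 2) and short lines are group means of the plotted values. Mast cells share the highest Il1rl1 levels with the type 2 lymphocyte gate and have no Gata3 or Il5 UMI. In mast cells 0 UMIs allows up to 16.1 to 344 CPM by library.

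Gata3, the transcription factor of type 2 lymphocytes, was found in both lymphoid gates. Cells that passed no fixed gate held 2258 of its 3915 UMIs with acupuncture and 1217 of 2706 in dysentery. Their mean level was 188 ± 67.0 CPM with acupuncture and 92.6 ± 17.2 CPM in dysentery (SD, n = 2), and was not tested. The levels and tests by fixed gate leave these cells out. T cells had 116 and 217 CPM with acupuncture and 87.3 and 129 CPM in dysentery, and the groups overlapped (log2 0.67 ± 0.29, adjusted p = 0.323). Without acupuncture replicate 1 it was 1.07 (adjusted p = 0.000140), and without acupuncture replicate 2 it was 0.14 (adjusted p = 0.854). Cd3-negative lymphoid cells had 135 and 219 CPM with acupuncture and 127 and 74.7 CPM in dysentery (log2 0.78 ± 0.30, adjusted p = 0.384), and without dysentery replicate 1 this was 1.21 (adjusted p = 0.0127). In both gates acupuncture replicate 2 was the highest library. Of 4 members tested in T cells 0 were called by edgeR or DESeq2 and 1 had an unadjusted p under 0.05, where edgeR called 1.59% of all genes.

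A Gata3 UMI was found in 39.1% and 50.8% of T cells with acupuncture and 34.2% and 35.7% in dysentery. Thinned to 2000 UMIs the shares were 19.9% and 26.5% against 17.5% and 21.1%, which overlapped (exact permutation p = 0.667). In macrophages 0.229% to 1.15% of cells had one. Epithelial cells, where GATA3 also acts, had 149 and 388 CPM with acupuncture and 299 and 319 CPM in dysentery. Lymphoid cells exceeded other gated cells by 5.02 ± 0.46 on the log2 scale (adjusted p = 4.95e-05).

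Il5 marked a small population that carried the receptor and the transcription factor together. Of 32397 kept cells, 194 had an Il5 UMI. Of these, 190 had a Gata3 UMI (97.9%, exact 95% interval 94.8 to 99.4%) and 188 had an Il1rl1 UMI (96.9%, 93.4 to 98.9%). Among all kept cells Gata3 was found in 5.73% and Il1rl1 in 11.0%. Cells with both Gata3 and Il1rl1 numbered 722, and 185 of them (25.6%) had Il5, against 9 of the other 31675 cells. No Cd3 UMI was found in 172 of the Il5 cells, and 157 passed none of the fixed gates.

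Other genes known from innate lymphoid type 2 cells were found in part of the Il5 cells. Il2ra, the interleukin 2 receptor chain, was found in 65.5% of them, Il7r, the receptor chain for interleukin 7 and TSLP, in 62.9%, Rora, a transcription factor these cells need, in 58.8%, and Nmur1, a neuropeptide receptor, in 34.0%. Among all kept cells of a library Il2ra was found in 1.65% to 4.63%, Il7r in 5.76% to 10.6%, Rora in 15.2% to 16.7% and Nmur1 in 0.540% to 0.922%. Il2ra, Il7r and Rora are not particular to Il5 cells. In T cells with a UMI of Il17a, a cytokine of type 17 T cells, Il2ra was found in 45.7% to 81.5% by library. Il7r was found there in 33.3% to 51.9% and Rora in 25.7% to 59.3%, in 12 to 75 cells. Nmur1 had 0 UMIs in those T cells with acupuncture and 3 in dysentery. Only 18 of the 194 passed the T cell gate and 16 the Cd3-negative lymphoid gate. Il4, the other cytokine of the locus, was found in 2 of them.

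**Figure D4:**
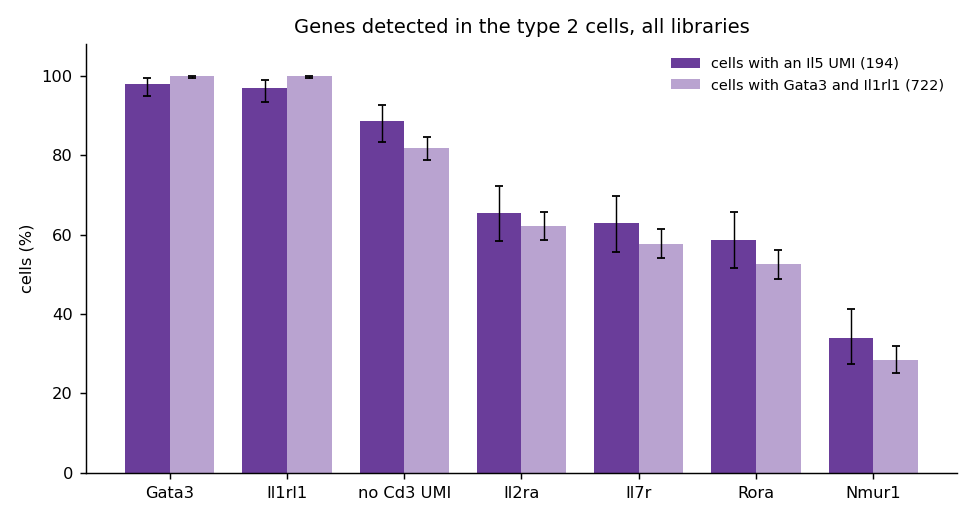
Percentage of cells in which each gene was detected, among the 194 cells with an Il5 UMI (dark bars) and the 722 cells with both Gata3 and Il1rl1 (light bars, 100% for these 2 by definition), over all 4 libraries; whiskers are exact 95% binomial intervals, which cover counting error only. Gata3 and Il1rl1 reached 97.9% and 96.9% of Il5 cells.

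These cells were rare in every library and their shares overlapped between groups. Il5 cells made up 0.312% (0.200 to 0.463%) and 1.02% (0.814 to 1.25%) of kept cells with acupuncture and 0.666% (0.480 to 0.899%) and 0.418% (0.300 to 0.566%) in dysentery. Cells with both Gata3 and Il1rl1 were 1.60% and 3.26% with acupuncture and 2.73% and 1.51% in dysentery. Acupuncture replicate 2 was the highest library and acupuncture replicate 1 or dysentery replicate 2 the lowest, so that the spread within a group was as wide as that between groups. Median depth of the Il5 cells was 5794.5 and 5455 UMIs with acupuncture and 4701.5 and 4188 in dysentery.

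Since most of these cells fell outside the fixed gates, a gate whose rule uses no member was added after the values were seen. It asks for at least 2 of Rora, Il2ra, Bcl11b and Nmur1 and for no UMI of Cd3, Csf1r or markers of natural killer, dendritic and B cells. It held 20 and 75 cells with acupuncture and 48 and 39 in dysentery. Il1rl1 was found in 95.0% and 96.0% of them with acupuncture and 95.8% and 94.9% in dysentery, and Gata3 in 95.0% and 98.7% against 89.6% and 92.3%. The gate took in only 50 of the 194 Il5 cells (25.8%) and 165 of the 722 cells with both Gata3 and Il1rl1 (22.9%), so its levels are those of a minority of these cells. Klrg1, another gene known from type 2 innate lymphoid cells, had 0 UMIs in the gate in every library.

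In the added gate Il1rl1 had 1176 and 1414 CPM with acupuncture and 1472 and 1445 CPM in dysentery, close to the level in mast cells. Gata3 had 1002 and 1308 CPM with acupuncture and 1231 and 926 CPM in dysentery. Il5 had 22.6 and 75.6 CPM with acupuncture and 80.4 and 82.9 CPM in dysentery, from 3 and 33 UMIs against 16 and 12. No test was run, because the gate was chosen afterwards and holds only 20 cells in acupuncture replicate 1.

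The Il5 promoter is shown because nearly every Il5 cell carried Gata3, whose product is known to bind it. The sequence is from RefSeq (build GRCr8, plus strand, 250 bases before to 50 bases after the start), with the GATA motif match in capitals.
Il5, chr10:38374882-38375181: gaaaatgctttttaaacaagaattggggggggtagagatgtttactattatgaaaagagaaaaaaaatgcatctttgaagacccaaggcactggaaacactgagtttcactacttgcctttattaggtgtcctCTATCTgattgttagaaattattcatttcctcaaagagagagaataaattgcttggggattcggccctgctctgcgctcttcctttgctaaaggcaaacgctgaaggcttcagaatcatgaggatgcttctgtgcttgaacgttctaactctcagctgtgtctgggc
The match reads AGATAG on the minus strand and begins 117 bases before the start site. Neither the AP-1 nor the STAT6 letters are in this window.

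In the fixed gates Il5 was near the limit of counting. T cells had 0 and 12 Il5 UMIs with acupuncture and 2 and 27 in dysentery, in 340, 378, 512 and 345 cells, and the values overlapped (log2 -1.07 ± 1.29, adjusted p = 0.748). Cd3-negative lymphoid cells had 6 and 8 UMIs with acupuncture, against 5 and 2 in dysentery. Il13, the cytokine that acts on epithelium and fibroblasts, had 1 UMI in 38282 deposited cells and none among the kept cells. Il9, Il25 and the eosinophil peroxidase gene Epx had none, and 0 of 38282 cells allows a share of up to 0.00784%.

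Genes of eosinophils, the target of Il5 and Ccl11, differed in how often they were found. Beside Epx at 0, the granule gene Prg2 had 1 or 2 UMIs per library in the stromal gate and 0 in macrophages, neutrophils and lymphocytes. A single cell of acupuncture replicate 1, which passed several gates, held 15 Prg2 UMIs. Il5ra, the receptor for interleukin 5, had 0 UMIs in acupuncture replicate 1, 1 in acupuncture replicate 2, 2 in dysentery replicate 1 and 8 in dysentery replicate 2. Siglec5, also listed as an eosinophil gene, was found in 611 and 460 kept cells with acupuncture and 167 and 477 in dysentery, most of them in the macrophage gate (518 and 440 against 137 and 406). In the neutrophil gate it had 61.3 CPM in acupuncture replicate 1, in 17.5% of cells, and 8.57 CPM in acupuncture replicate 2, against 1.75 and 0 CPM in dysentery. Ccr3, the eotaxin receptor, was found in T cells at 29.3 and 27.2 CPM with acupuncture and 13.1 and 20.8 CPM in dysentery, and macrophages had at most 0.406 CPM. Both acupuncture T cell values were higher than both dysentery values, in a gate where 48.1% of genes were separated, and the test did not pass (adjusted p = 0.186). Cells that passed no gate held 16 of 156 Ccr3 UMIs with acupuncture and 117 of 231 in dysentery. Their mean level was 1.32 ± 0.563 CPM with acupuncture and 9.29 ± 7.62 CPM in dysentery (SD, n = 2), the opposite order to T cells.

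Of the receptor partners, Il1rap, which joins ST2 to signal, was nearly undetected. It had 1.05 and 1.07 CPM in macrophages with acupuncture and 0.861 and 1.04 CPM in dysentery. Mast cells had 0 UMIs, which allows up to 16.1 to 344 CPM by library. Of the gates where Il1rap was found, neutrophils had most, at 15.7 and 25.7 against 15.8 and 20.7 CPM. Crlf2, the TSLP receptor chain, had 161 and 142 CPM in macrophages with acupuncture and 164 and 190 CPM in dysentery (log2 -0.19 ± 0.14, adjusted p = 0.434), and 12.4 and 12.8 against 14.0 and 15.4 CPM in stromal cells.

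Il7r, which pairs with Crlf2 for TSLP and is the interleukin 7 receptor in lymphocytes, moved in opposite directions by gate. In T cells it rose by 0.99 ± 0.16 on the log2 scale (74.2 and 82.9 against 42.5 and 38.0 CPM, adjusted p = 0.0221). In macrophages it fell by 1.55 ± 0.13 (12.8 and 11.2 against 35.4 and 36.9 CPM, adjusted p = 0.0112). The difference between these gates was not tested. In macrophages without Ccl24 it had 35.1 and 30.9 CPM with acupuncture and 44.3 and 46.9 CPM in dysentery, and in those with Ccl24 it had 2.63 and 0.930 against 4.61 and 4.43 CPM. The difference between the groups was thus smaller inside the part without Ccl24 than in the whole gate, and neither part was tested. Of the list of alarmin receptor and signalling genes, which leaves out the members and so Il1rl1, no other gene passed among 11 tested in T cells and 12 in macrophages. In stromal cells none of 11 passed, with Myd88, the adaptor of ST2, at 73.2 and 67.5 against 47.1 and 49.5 CPM (adjusted p = 0.0558).

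Il4r, the receptor chain for interleukins 4 and 13, rose in 3 gates. Macrophages had 125 and 149 CPM with acupuncture and 44.2 and 37.7 CPM in dysentery (log2 1.79 ± 0.14, adjusted p = 0.00990). T cells had 66.8 and 88.1 against 32.5 and 34.3 CPM (1.24 ± 0.18, adjusted p = 0.0177). Stromal cells had 179 and 143 against 98.6 and 101 CPM (0.69 ± 0.11, adjusted p = 0.0440). Il4 itself was found in 68 kept cells, 38 of them in the Cd3-negative lymphoid gate, where 76 of its UMIs came from dysentery replicate 1.

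Several chemokines of the type 2 axis rose. Ccl24 in macrophages had 1005 and 540.4 CPM with acupuncture and 240.2 and 294 CPM in dysentery (log2 1.57 ± 0.32, adjusted p = 0.0425). Macrophages with a Ccl24 UMI, whose share of the gate differed as given above, had 1463 and 823 CPM with acupuncture. They had 1071 and 1246 CPM in dysentery, so the groups overlapped among these cells. Ccl7, which also acts on the eotaxin receptor, rose in macrophages (2055 and 2134 against 154 and 290 CPM, log2 3.27 ± 0.34, adjusted p = 0.0155) and in stromal cells (383 and 251 against 90.2 and 110 CPM, log2 1.65 ± 0.20, adjusted p = 0.0236). In T cells Ccl7 rose too, at 21.4 and 22.5 against 4.28 and 3.70 CPM, a small part of the macrophage level of the same libraries, and the part of free RNA in it was not tested. Ccl17, a ligand of CCR4 on type 2 T cells, rose in dendritic cells (263 and 161 against 17.0 and 35.4 CPM, log2 3.05 ± 0.36, adjusted p = 0.00168). It rose in the Cd3-negative lymphoid gate too (220 and 180 against 32.0 and 52.1 CPM, log2 2.25 ± 0.26, adjusted p = 0.0315). Its levels there were near those of dendritic cells, and whether dendritic cells passed the lymphoid gate was not tested.

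Among genes of type 2 lymphocytes, Rora rose in T cells (59.8 and 79.9 against 27.1 and 29.6 CPM, log2 1.33 ± 0.19, adjusted p = 0.0164). Il17a, a cytokine of type 17 T cells, was higher in both acupuncture libraries too, in a gate where 48.1% of genes were separated, at 497 and 1215 CPM with acupuncture and 123 and 53.3 CPM in dysentery. T cells with an Il17a UMI had 182 and 147 CPM of Rora with acupuncture and 75.8 and 59.4 CPM in dysentery, and T cells without one had 49.3 and 59.7 against 24.0 and 28.7 CPM. Rora was thus higher with acupuncture in both parts, in a split made after the values were seen and not tested. In Cd3-negative lymphoid cells none of 7 passed in edgeR, with Rora at 115 and 104 against 56.5 and 31.9 CPM (adjusted p = 0.108) and Il2ra at 46.5 and 93.9 against 26.0 and 25.7 CPM (adjusted p = 0.143). In macrophages Areg, a growth factor that innate lymphoid cells also make, rose (11.3 and 26.0 against 1.63 and 1.39 CPM, log2 3.68 ± 0.48, adjusted p = 0.0204), as did Hpgds, the prostaglandin D synthase (33.7 and 25.5 against 14.7 and 11.9 CPM, log2 1.20 ± 0.19, adjusted p = 0.0254). Id2, a regulator that innate lymphoid cells need, fell in macrophages (417 and 355 against 622 and 662 CPM, log2 -0.69 ± 0.13, adjusted p = 0.0394) and rose in stromal cells (171 and 147 against 105 and 92.6 CPM, log2 0.70 ± 0.10, adjusted p = 0.0332).

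Of the known targets of interleukins 4 and 13, Mrc1, the mannose receptor, rose in macrophages (1552 and 1580 against 650 and 928 CPM, log2 1.03 ± 0.20, adjusted p = 0.0418) and in dendritic cells (62.2 and 55.4 against 17.9 and 28.0 CPM, log2 1.38 ± 0.29, adjusted p = 0.0325). Mrc1 is also 1 of the markers of the macrophage gate. Its dendritic values were a small part of the macrophage level of the same libraries, and the part of free RNA in them was not tested. Socs1, a suppressor of cytokine signalling, rose in T cells (204 and 396 against 112 and 96.3 CPM, log2 1.55 ± 0.28, adjusted p = 0.0361) and stromal cells (48.5 and 32.7 against 21.4 and 19.9 CPM, log2 0.98 ± 0.16, adjusted p = 0.0464). Arg1 did not pass in macrophages (1.09 and 0.611 against 6.28 and 0.754 CPM, adjusted p = 0.243), nor did the matrix gene Postn in stromal cells (4454 and 3683 against 4371 and 2982 CPM, adjusted p = 0.717).

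Over the 5 pathway lists together, 6 genes rose and 2 fell of 31 tested in macrophages, or 25.8%, against 9.49% of all genes called, with a median log2 of 0.29 against -0.01 over all genes. In T cells 5 of 28 rose, against 1.59% of all genes called, and in stromal cells 4 of 27 rose, against 2.55%. Dendritic cells had 2 rises of 20, against 4.62% of all genes, and Cd3-negative lymphoid cells 1 of 28, against 0.4%. Endothelial cells and neutrophils had 0 called in edgeR of 14 and 13 tested (3 and 2 at an unadjusted p under 0.05, 1 and 0 in DESeq2), where 0.179% and 0% of all genes were called. The lists were chosen with earlier results of these data known, so these shares describe the lists and test no excess. The calls include Mrc1, a marker of the macrophage gate, and Ccl7 in T cells. Without acupuncture replicate 1 none of the 8 macrophage calls held, and without dysentery replicate 1 none of the 5 T cell calls and not that of dendritic Mrc1. In stromal cells the Ccl7 call held without each library in turn, the Il4r and Id2 calls were lost without any 1 of them, and the Socs1 call held without acupuncture replicate 2 alone.

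**Figure D5:**
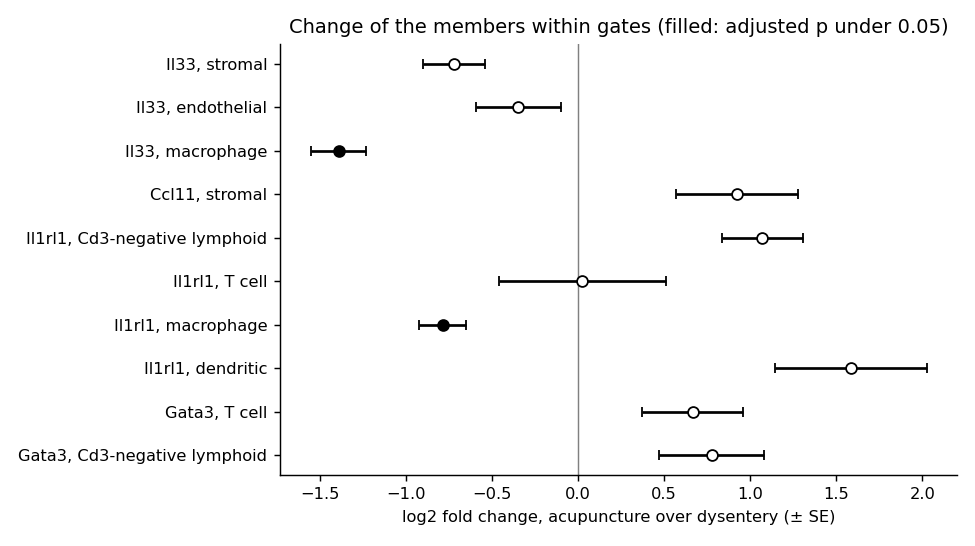
Log2 fold change, acupuncture over dysentery, of the members within gates (x axis), with whiskers of 1 SE; filled points passed the edgeR test at an adjusted p under 0.05. The 2 filled points are the falls of Il33 and Il1rl1 in macrophages, at -1.39 and -0.79.

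Across 8 gates with at least 20 cells in every library, the genes whose mean log2(CPM + 10) followed each member most closely were ranked by Pearson's r among 4992 genes. For Il33 they were Cxcl12, a chemokine of stroma and endothelium (0.995), Galnt15 (0.995) and the matrix protein gene Sparc (0.991). For Ccl11, a profile set by the stromal gate alone, they were Rbms3, Pcdh18 and the matrix protease gene Mmp14, each at 0.999 or more. For Il1rl1 they were Olfm1 (0.961), Map2k2 (0.957) and Il7r (0.941), and for Gata3 the granzyme gene Gzmm (0.997) and the death ligand gene Faslg (0.997), beside a gene known only by identifier. Il7r is itself a marker of the Cd3-negative lymphoid gate, so its profile depends partly on the gating. The gates share libraries, and mast, mural and epithelial cells were too few to be among them. The ranking for Il1rl1 thus leaves out mast cells, its highest fixed gate, and the ranking for Gata3 leaves out epithelial cells. The epithelial mean of 289 CPM of Gata3 was above the 137 CPM of T cells and 139 CPM of Cd3-negative lymphoid cells.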

How the data were processed

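The deposited matrices of 4 libraries hold raw UMI counts, which the authors made with Cell Ranger 6.0.1 and STAR, per the submitters' processing notes; mRatBN7.2 and GRCh38.p13 are listed there as builds, without a role. Barcode and feature files give other information, the deposited names of cells and genes.

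Kept cells had 300 or more genes, 500 or more UMIs and up to 20% mitochondrial UMIs. The top Scrublet scores (scanpy 1.11.5) were dropped, at 0.8% per 1000 cells, which left 32397 of 38282 cells in libraries of 53066666 to 93897006 UMIs. Cells were placed in 11 gates by marker genes. UMIs summed per library were tested with edgeR 4.0.16 (TMM, filterByExpr, threshold 0.05) between groups in gates of 30 or more cells in each library, and DESeq2 1.42.0 was an alternative. Stromal, lymphoid and mast cells, the last in 5 to 72 cells a library, were each tested against other gated cells. Changes were set against each other between gates as interactions, blocked by library. The code was tested on simulated data. Intervals, and floors of 3 counts, cover counting error only.

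The members and gene lists were chosen with earlier results of these data known. Members are always named, and pathway genes where they passed or pair with a member. Myd88, Arg1, Postn, Il2ra, Il4, Ccr3, Klrg1, Tbx21, Ifng, Il17a and Siglec5 were named after their values were seen.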

Additional observations from a re-analysis of the deposited data

Results flagged for a closer look

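The change of Il1rl1 differed between macrophages and dendritic cells, by -2.38 on the log2 scale in a test of the difference itself (adjusted p = 0.00344, edgeR with library as a block). Macrophages had 34.5 and 29.2 CPM with acupuncture and 53.6 and 59.2 CPM in dysentery, lower in both acupuncture libraries. Dendritic cells had 22.8 and 42.0 CPM with acupuncture and 16.0 and 5.90 CPM in dysentery, higher in both. Without acupuncture replicate 2 the difference was -1.53 and did not pass (adjusted p = 0.278), and with library totals in place of TMM it was -2.44 (adjusted p = 0.00213). The dendritic values rest on 11 and 66 Il1rl1 UMIs with acupuncture and 17 and 4 in dysentery. The share of macrophages with a Ccl24 UMI moved with it, at 74.4% and 67.7% with acupuncture and 28.7% and 31.2% in dysentery, and its part in the difference was not tested.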

How the results depend on the processing

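The falls of Il33 and Il1rl1 in macrophages kept their direction under every alternative run. With DESeq2 the log2 change of Il33 in stromal cells was -0.72 and passed, and that of Il1rl1 in T cells was -0.029. With library totals in place of TMM the last value was -0.0072, and with doublets kept it was -0.073. With no filter on low counts Gata3 (0.76) and Il1rl1 (1.05) in Cd3-negative lymphoid cells and Il1rl1 in dendritic cells (1.58) passed. Without thinning, the share of endothelial cells with Il33 differed by -0.90 percentage points, against 7.91 thinned. The causes were not tested.

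The equal replicate numbers are not said to mark a shared animal or day, and with 2 pairs the libraries share only a number. Deviations of same-numbered libraries correlated at -0.05 to 0.17 across genes of the 7 gates. With the replicate number as a block Ccl11 in stromal cells (0.88, adjusted p = 0.0336), Gata3 in T cells (0.61, adjusted p = 0.0353) and Il1rl1 in Cd3-negative lymphoid cells (1.02, adjusted p = 0.0253) passed in edgeR, while Ccl24 and Id2 in macrophages did not (adjusted p = 0.0513 and 0.0621). The block called 153 genes in Cd3-negative lymphoid, 377 in T and 137 in endothelial cells.

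Without that block, edgeR called 32 genes in Cd3-negative lymphoid, 140 in T, 302 in dendritic, 12 in endothelial, 1146 in macrophage, 0 in neutrophil and 334 in stromal gates. In neutrophils 179 genes at most were called with 1 library left out. DESeq2 called 73 in Cd3-negative lymphoid, 201 in dendritic, 45 in endothelial, 3 in neutrophil and 823 in stromal gates. With no filter on low counts, 414 Cd3-negative lymphoid, 328 T, 670 dendritic, 254 endothelial, 2437 macrophage and 48 neutrophil genes were called. Library totals gave 12 Cd3-negative lymphoid and 30 endothelial genes, the 10% mitochondrial limit 9 and 37. In Cd3-negative lymphoid cells 7 were called with doublets kept and 8 with a stromal share of 0.5%.

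With 1 library left out, the lone library of a group is assumed to vary like the others. Genes called ranged over 17 to 336 in Cd3-negative lymphoid, 4 to 774 in T, 301 to 521 in dendritic, 3 to 206 in endothelial, 0 to 1972 in macrophage, 0 to 179 in neutrophil and 165 to 490 in stromal gates. Log2 changes ranged over 0.34 to 1.21 for Gata3 and 0.71 to 1.34 for Il1rl1 in Cd3-negative lymphoid cells, and 0.14 to 1.07 for Gata3 and -0.64 to 1.07 for Il1rl1 in T cells. They were 0.97 to 2.51 for Il1rl1 in dendritic cells, -0.89 to -0.66 for Il1rl1 in macrophages and -0.71 to 0.14 for Il33 in endothelial cells. The change in T minus Cd3-negative lymphoid cells ranged over -0.79 to 0.45 for Gata3 and -1.60 to -0.13 for Il1rl1, and macrophage minus dendritic Il1rl1 over -3.48 to -1.53. Thinned shares of cells differed by -0.664 to 8.65 percentage points for Gata3 in Cd3-negative lymphoid cells, -0.921 to 1.61 for Il1rl1 in T cells and -3.45 to 19.3 for Il33 in endothelial cells. The log2 change in share of kept cells was -0.88 to 0.33 for T and -0.41 to 0.19 for stromal cells. Few UMIs limit Il5 and Il13, and few cells limit the dendritic and mast cell values.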
